A study of Mus musculus with 8 samples.

Results

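The tensins and the cytoplasmic adaptors of focal adhesions were followed here as 10 genes taken by name from the deposited count table: the tensins Tns1, Tns2, Tns3 and Tns4, talin 1 (Tln1), vinculin (Vcl), paxillin (Pxn), zyxin (Zyx), and the Cas-family scaffolds Bcar1 (p130Cas) and Nedd9 (HEF1). All 10 have a row among the 41730 of the table, none has a further copy row, and all 10 passed the filter on low counts that left 13393 genes. The libraries were RNA-seq of spheroids grown by hanging drop from 4T1, a BALB/c mouse mammary carcinoma line. Cells carried a lentivirus for a short hairpin RNA against Tlr7 (shTlr7, 4 libraries) or for a scrambled hairpin (shCtrl, 4 libraries). The sources used here describe 1 hairpin against Tlr7 and do not say whether cells were cloned or whether replicates were separate cultures. P-values therefore reflect only how much these libraries varied, which may be technical variation.

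Focal adhesions join integrins, the membrane receptors for extracellular matrix, to the actin cytoskeleton. Talin binds the integrin tail and switches the receptor on, and vinculin reinforces the link from talin to actin under load. Paxillin and the Cas proteins carry phosphotyrosines that recruit further signalling proteins, while zyxin gathers where actin is under tension. Tensins bind the integrin tail through a PTB domain, and tensins 1 to 3 also bind actin, whereas Tns4 (also called cten) lacks the amino-terminal actin-binding part. In human mammary epithelial cells, epidermal growth factor is known to lower TNS3 and raise TNS4, an exchange that goes with migration.

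Totals ranged from 18.1 to 93.8 M counts per shTlr7 library and from 19.2 to 51.5 M per shCtrl library. The biological coefficient of variation was 6.76%. Tlr7 had 0, 4, 3 and 0 counts in shTlr7 replicates 1 to 4, against 2, 3, 2 and 2 in shCtrl replicates 1 to 4, so a lower level was not detectable at this depth. The 0 counts allow up to 0.166 and 0.106 CPM in shTlr7 replicates 1 and 4, taking 3 counts of the total as the limit, for counting error only. Summed over 5 markers each, the epithelial list lay between 3095 and 3333 CPM (counts per 1 M counts, with TMM-scaled library sizes) in shTlr7 and between 3653 and 3832 CPM in shCtrl. The fibroblast list was at or below 0.0536 CPM in shTlr7 and 0.121 CPM in shCtrl, with Thy1 and Col3a1 at 0 in all libraries. The leukocyte list reached 0.570 CPM in shTlr7 and 0.243 CPM in shCtrl, with Lyz2 at 0 throughout, and the endothelial list reached 0.643 CPM in shTlr7 and 0.377 CPM in shCtrl, with Emcn at 0 throughout. Of the 5 epithelial markers, the keratins Krt14, Krt18 and Krt8 were lower, with log2 fold changes of -3.50, -0.47 and -0.37, and Cdh1 (E-cadherin) and Epcam were higher, at 0.20 and 0.15 (edgeR adjusted p between 1.91e-07 and 0.0297). Replicate 4 of each group stood apart from the other libraries on the second principal component, which held 4.85% of the variance of the 1000 most variable genes. The part of the keratins in the results below was not tested.

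Of the 10 genes, 8 were lower and 1 was higher in shTlr7 (edgeR quasi-likelihood test, Benjamini-Hochberg adjusted p under 0.05 over all genes tested). Tns3 fell the most, to 0.323 times its shCtrl level, and Tns4, Nedd9 and Pxn fell by 0.53 to 0.69 on the log2 scale. Tns1, Tln1, Bcar1 and Vcl were lower by smaller amounts. Tns2 was the member that rose, and Zyx did not pass the threshold. Without both libraries numbered 4, the counts were also 8 lower and 1 higher, and with library size alone in place of TMM scaling they were 7 lower and 2 higher. Calls were frequent in the series as a whole: 56.1% of all genes tested were called, 26.8% lower and 29.3% higher. The median log2 fold change was -0.30 over the 10 genes and 0.01 over all genes tested, and the median size regardless of sign was 0.38 and 0.23. In CPM, the 4 shTlr7 libraries lay entirely below the 4 shCtrl libraries for 8 of the genes and entirely above them for 1, against 23.8% and 26% of all genes tested, or 49.8% in either direction. In these bulk libraries, fewer cells that express a gene and less RNA per cell cannot be told apart.

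**Figure D1:**
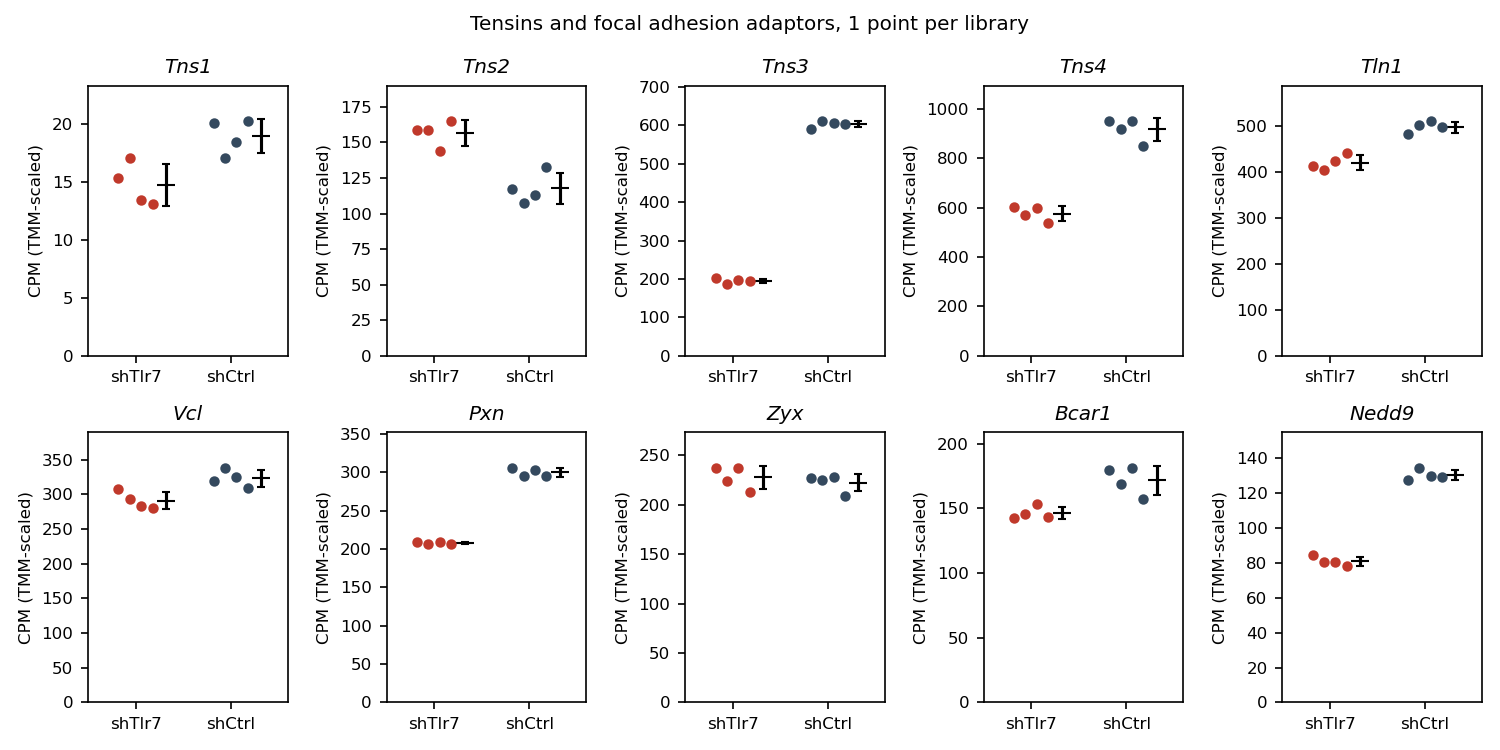
CPM, scaled by trimmed mean of M values (TMM), of the 10 genes in each library (points), with the group mean and SD beside them (bars; n = 4 per group); each panel starts at 0. Tns3 lies between 187 and 202 CPM in shTlr7 and between 591 and 610.2 CPM in shCtrl, Tns2 is higher in shTlr7, and the groups overlap for Zyx.

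Tns3, on the minus strand of chromosome 11 (8431652 to 8664758, GRCm38.p6), encodes a widely expressed, actin-binding tensin. Its level was 202, 187, 197 and 194 CPM in shTlr7 replicates 1 to 4, against 591, 610.2, 605 and 603 CPM in shCtrl replicates 1 to 4. No shTlr7 library came near any shCtrl library, and the coefficient of variation within groups was 3.02% in shTlr7 and 1.34% in shCtrl. This gave a log2 fold change of -1.63 ± 0.04 (SE; 95% interval -1.71 to -1.55; edgeR adjusted p = 3.28e-12), a 3.09-fold lower level. Only 232 of the 13393 genes tested had a lower log2 fold change. The counts behind these values were 3762 to 18162 per shTlr7 library and 10963 to 30134 per shCtrl library.

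Tns4, elsewhere on chromosome 11 (99065678 to 99089306, minus strand), encodes the short tensin. It had 601, 569, 596 and 536 CPM in shTlr7 replicates 1 to 4, against 948, 919, 949 and 849 CPM in shCtrl replicates 1 to 4. All shTlr7 libraries were lower than all shCtrl libraries, and replicate 4 was the lowest library of each group. Its log2 fold change came to -0.67 ± 0.05 (SE; edgeR adjusted p = 1.23e-07).

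Tns2 (chromosome 15, 102098475 to 102116401, plus strand) encodes a tensin that is also known to bind the receptor kinase Axl. It moved the other way, with 159, 159, 144 and 165 CPM in shTlr7 replicates 1 to 4 and 117, 108, 113 and 133 CPM in shCtrl replicates 1 to 4. The lowest shTlr7 library was still higher than the highest shCtrl library. On the log2 scale the difference was 0.41 ± 0.06 (SE; 95% interval 0.28 to 0.55; edgeR adjusted p = 1.08e-04). Across all genes tested, 86% had a lower log2 fold change than Tns2.

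Tns1 (chromosome 1, 73910232 to 74124548, minus strand), an actin-binding tensin found in fibrillar adhesions, was the scarcest member. Its values were 15.4, 17.1, 13.5 and 13.1 CPM in shTlr7 replicates 1 to 4, against 20.1, 17.1, 18.5 and 20.3 CPM in shCtrl replicates 1 to 4. The groups were separated by a narrow margin, since shTlr7 replicate 2 at 17.09 CPM lay just below shCtrl replicate 2 at 17.13 CPM. The difference was -0.35 ± 0.09 on the log2 scale (SE; edgeR adjusted p = 0.00579).

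Levels of different genes were compared per kilobase of annotated exon. On that scale Tns4 was the most abundant tensin in both groups, at 111 ± 5.80 CPM per kb in shTlr7 and 177 ± 9.11 CPM per kb in shCtrl (SD, n = 4 each). Tns3 and Tns2 changed places in rank. In shTlr7, Tns2 at 28.7 ± 1.63 CPM per kb exceeded Tns3 at 17.4 ± 0.53 CPM per kb, and the lowest Tns2 library was higher than the highest Tns3 library. In shCtrl, Tns2 at 21.6 ± 2.00 CPM per kb was below Tns3 at 53.9 ± 0.72 CPM per kb in all 4 libraries. The log2 ratio of Tns2 to Tns3 was 0.69, 0.79, 0.59 and 0.80 in shTlr7 replicates 1 to 4, against -1.30, -1.47, -1.39 and -1.15 in shCtrl replicates 1 to 4. The rank change also appeared with the longest annotated transcript as the length, where the mean log2 ratio was 0.33 in shTlr7 and -1.71 in shCtrl.

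The summed tensin level was 158 ± 5.19 CPM per kb in shTlr7 and 254 ± 7.34 CPM per kb in shCtrl. Tns4 made up 70.3% ± 1.61 of it in shTlr7 and 69.8% ± 1.63 in shCtrl, a difference smaller than the spread between libraries. With the longest transcript as the length, the mean Tns4 share was 66.7% in shTlr7 and 64.2% in shCtrl, a larger difference. Per kb of exon, Tns3 made up 11.0% ± 0.31 in shTlr7 and 21.2% ± 0.76 in shCtrl. Tns2 took 18.1% ± 1.43 in shTlr7 and 8.52% ± 1.01 in shCtrl, and Tns1 was at most 0.680% of the sum in any library. The log2 ratio of Tns4 to Tns3 was 2.67 ± 0.07 in shTlr7 and 1.72 ± 0.08 in shCtrl, Tns3 having the larger fall of the pair. These shares and ratios restate the 4 tensin levels and carry no test of their own.

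**Figure D2:**
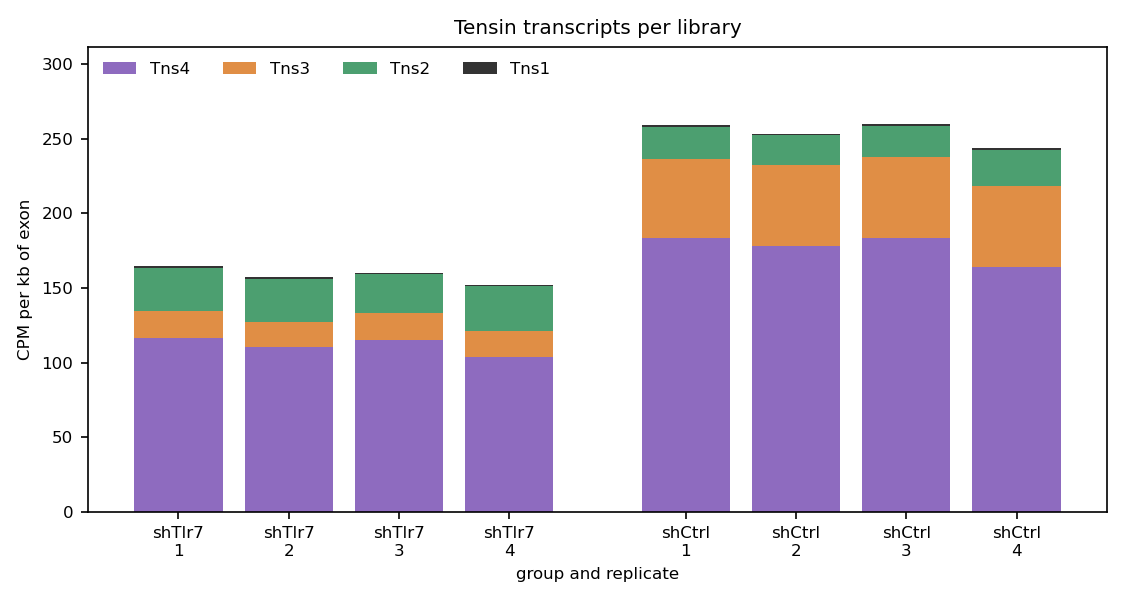
Tensin transcripts in each library as CPM per kb of exon, stacked by gene, with the 4 shTlr7 libraries left of the 4 shCtrl libraries. The stacks reach 152 to 164 CPM per kb in shTlr7 and 244 to 259.6 CPM per kb in shCtrl; the Tns3 segment is 16.76 to 18.03 CPM per kb in shTlr7 and 52.9 to 54.6 CPM per kb in shCtrl.

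Promoter sequence was read for the genes that have an entry. RefSeq's GRCm38.p6 table holds 9 windows for 8 of the 10 genes, and Tns4 and Pxn have no entry. The 250 bases before the start are printed, on each gene's own strand, for the tensins that fell (Tns3, Tns1) and rose (Tns2) and for Vcl, whose change was small and depended on scaling. Capitals mark matches, on either strand and with overlaps counted, to the GC box with the letters GGGCGG, the box spelled CCAAT, the TEAD motif with the letters GGAATG, the AP-1 motif with the letters TGANTCA, or the SRF CArG box.
Tns3, chr11:8664536-8664785, minus strand: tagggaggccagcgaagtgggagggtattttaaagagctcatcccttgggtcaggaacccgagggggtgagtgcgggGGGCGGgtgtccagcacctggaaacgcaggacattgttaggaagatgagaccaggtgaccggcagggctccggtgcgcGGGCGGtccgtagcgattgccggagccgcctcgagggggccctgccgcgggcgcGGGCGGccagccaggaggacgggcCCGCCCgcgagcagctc
Tns1, chr1:74124549-74124798, minus strand: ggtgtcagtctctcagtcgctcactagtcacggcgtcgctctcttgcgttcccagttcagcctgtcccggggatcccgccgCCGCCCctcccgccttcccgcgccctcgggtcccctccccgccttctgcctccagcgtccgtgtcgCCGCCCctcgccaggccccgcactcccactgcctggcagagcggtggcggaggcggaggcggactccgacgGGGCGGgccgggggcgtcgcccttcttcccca
Tns2, chr15:102102684-102102933, plus strand: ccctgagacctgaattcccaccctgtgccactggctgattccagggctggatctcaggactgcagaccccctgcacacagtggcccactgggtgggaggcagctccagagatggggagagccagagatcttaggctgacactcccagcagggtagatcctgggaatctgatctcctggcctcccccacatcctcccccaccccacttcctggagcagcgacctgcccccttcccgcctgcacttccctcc
Vcl, chr14:20929148-20929397, plus strand: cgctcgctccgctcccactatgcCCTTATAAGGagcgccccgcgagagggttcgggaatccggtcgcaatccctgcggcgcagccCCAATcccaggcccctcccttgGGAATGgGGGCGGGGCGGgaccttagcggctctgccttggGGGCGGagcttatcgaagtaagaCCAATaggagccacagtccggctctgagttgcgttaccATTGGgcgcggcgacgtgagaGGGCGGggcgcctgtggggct
The start that RefSeq's table uses lies inside the annotated gene for Tns2, by 4459 bases, and by 223 bases for Tns3 and 15 for Vcl. These windows therefore precede an internal start. The Tns2 window lies wholly inside its gene, so sequence ahead of the outermost Tns2 start was not read. Most of the Tns3 window also lies inside its gene, including all its GC boxes, 173 to 12 bases before the start. The Tns3 and Tns1 windows held 4 and 3 GC boxes and no match to the other motifs. The Tns2 window held no match to any of the 5. G and C made up 69.6% of the Tns3 window, 74.4% of the Tns1 window and 63.6% of the Tns2 window. Whether GC boxes go with the direction of change was not tested. The Vcl window held a CArG box 227 to 218 bases before the start, 1 TEAD match next to a run of overlapping GC boxes, 4 GC boxes in all and 3 CCAAT boxes. Among the other members, the Zyx window held 2 GC boxes and an AP-1 match 121 to 115 bases before its start. That start lies 317 bases inside the annotated gene, so the Zyx window is wholly inside it. Tln1, which fell, had no match to any of the 5 motifs. Bcar1, which also fell, had 5 GC boxes and 1 CCAAT box over its 2 windows together. Nedd9, which fell too, had 2 GC boxes and 1 CCAAT box in its only window. For Nedd9 and 1 of the 2 Bcar1 windows, the start lies 128361 and 11713 bases inside the gene, so these windows are also wholly inside. Sequence ahead of the outermost start was not read for Zyx or Nedd9 either. Of all 32851 windows of this length, 32.7% held a GC box, 33.8% a CCAAT box, 12.6% a TEAD match, 6.75% an AP-1 match and 1.47% a CArG box. A match describes letters in the window, and the counts hold no measurement of binding.

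Talin and vinculin, which carry force from integrins to actin, were lower by small amounts. Tln1 (chromosome 4, 43531513 to 43562583) had 412, 405, 423 and 442 CPM in shTlr7 replicates 1 to 4, against 482, 501, 511 and 497 CPM in shCtrl replicates 1 to 4. The groups did not overlap, and the log2 fold change was -0.24 ± 0.04 (SE; edgeR adjusted p = 1.72e-04). Vcl (chromosome 14, 20929383 to 21033676) had 307, 294, 283 and 279.9 CPM in shTlr7 replicates 1 to 4, against 319, 338, 325 and 309 CPM in shCtrl replicates 1 to 4. Its groups were separated only narrowly, between shTlr7 replicate 1 and shCtrl replicate 4, and the log2 fold change was -0.15 ± 0.04 (SE; edgeR adjusted p = 0.00858).

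The vinculin call rested on the scaling. With library size alone in place of TMM, the median of all genes moved up by 0.104 on the log2 scale, and Vcl had a log2 fold change of -0.05 (edgeR adjusted p = 0.322). That scaling called 5513 genes higher and 2491 lower, where TMM called 3927 higher and 3590 lower. Exons of Ap3m1, whose log2 fold change was 0.39 ± 0.06 (SE), share 25.5% of the Vcl exon bases, and the strand setting of the counting is not given in the sources used here. For Tln1 the shared part is 3.67%, with Creb3, whose log2 fold change was 0.80 ± 0.07 (SE), and for Zyx it is 4.38%, with Epha1.

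Paxillin and zyxin, both LIM-domain scaffolds, differed in what they showed. Pxn (chromosome 5, 115491970 to 115555987) had 209.7, 207, 209 and 207 CPM in shTlr7 replicates 1 to 4, against 306, 295, 303 and 295 CPM in shCtrl replicates 1 to 4. The groups lay far apart relative to their spread, with a coefficient of variation of 0.740% in shTlr7 and 1.87% in shCtrl. Pxn had a log2 fold change of -0.53 ± 0.03 (SE; 95% interval -0.60 to -0.45; edgeR adjusted p = 4.16e-08).

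Zyx (chromosome 6, 42349511 to 42360213) had 237, 224, 237 and 213 CPM in shTlr7 replicates 1 to 4, against 227, 225, 228 and 209 CPM in shCtrl replicates 1 to 4. The groups overlapped, and replicate 4 was the lowest library of each. The log2 fold change was 0.03 ± 0.05 (SE; edgeR adjusted p = 0.550), and its 95% interval of -0.07 to 0.13 leaves out a change of the size seen for paxillin. With library size alone Zyx passed the threshold at 0.14 (edgeR adjusted p = 0.0144), close to the 0.115 to which that scaling moved the median of all genes.

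The Cas-family scaffolds, which become phosphorylated by Src-family kinases and recruit Crk, were both lower. Nedd9 (chromosome 13, 41309916 to 41487362) had 84.4, 80.8, 80.7 and 78.0 CPM in shTlr7 replicates 1 to 4, against 128, 135, 129.6 and 129 CPM in shCtrl replicates 1 to 4. The groups were widely separated, and the log2 fold change was -0.69 ± 0.04 (SE; 95% interval -0.77 to -0.60; edgeR adjusted p = 1.28e-08). Bcar1 (chromosome 8, 111710474 to 111743849) had 142, 146, 154 and 144 CPM in shTlr7 replicates 1 to 4, against 179.6, 169, 181 and 157 CPM in shCtrl replicates 1 to 4. Its groups did not overlap but came close, shTlr7 replicate 3 lying just under shCtrl replicate 4, and the log2 fold change was -0.23 ± 0.05 (SE; edgeR adjusted p = 0.00130). Per kb of exon, Bcar1 was the more abundant of the pair in both groups. The log2 ratio of Nedd9 to Bcar1 was -1.34 ± 0.07 in shTlr7 and -0.88 ± 0.11 in shCtrl, given here without a test.

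**Figure D3:**
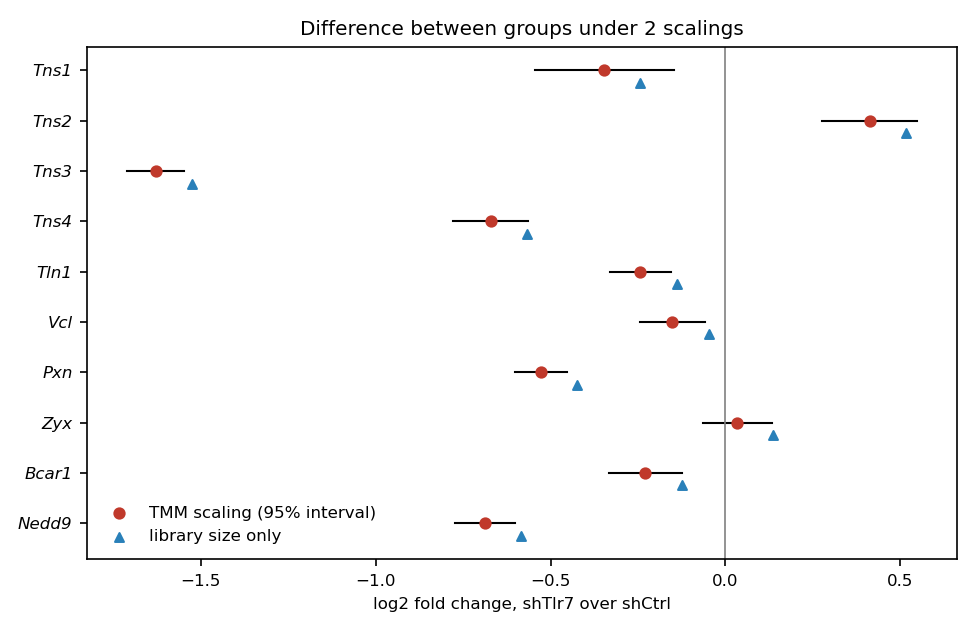
Log2 fold change of shTlr7 over shCtrl for the 10 genes with TMM scaling (circles, with the 95% interval as a line) and with library size alone (triangles, value only). Under both scalings Tns3 stands furthest to the left and Tns2 is above 0, whereas the call on Vcl is lost and Zyx becomes called with library size alone.

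Ordered by CPM per kb of exon, the shTlr7 libraries ran Tns4, Tln1, Zyx, Vcl, Bcar1, Tns2, Pxn, Tns3, Nedd9 and Tns1, and of these neighbours only Tln1 and Zyx overlapped between libraries. In the shCtrl libraries the order was Tns4, Tns3, Tln1, Zyx, Vcl, Bcar1, Pxn, Tns2, Nedd9 and Tns1. There Zyx, Vcl and Bcar1 each overlapped the next gene in the order, as did Tns2 and Nedd9. Tns3 was thus in rank 8 in shTlr7 and rank 2 in shCtrl. With the longest transcript as the length, Tns3 kept these ranks, Tns4 stayed first and Tns1 last, while Pxn moved to rank 3 in both groups.

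**Figure D4:**
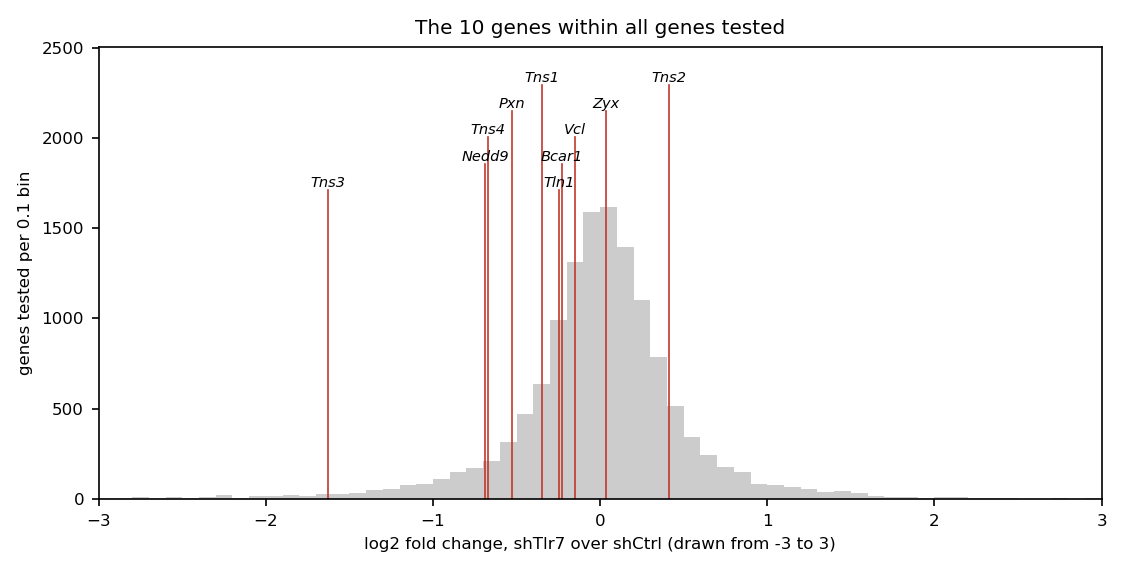
Number of tested genes per 0.1 bin of log2 fold change, shTlr7 over shCtrl (grey bars, drawn from -3 to 3), with a line at the value of each of the 10 genes; line heights only separate the names. Tns3 at -1.63 lies in the left tail, where 1.73% of genes tested have a lower value, and Zyx at 0.03 lies near the peak.

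A further 56 genes of the adhesion plaque, listed by role, were read from the same fit. Of the 50 that passed the filter, 26 were lower and 11 higher, beside 26.8% and 29.3% of all genes tested, with a median log2 fold change of -0.13. With library size alone, 18 were lower and 12 higher, and without both libraries numbered 4, 28 were lower and 11 higher. The 6 others had between 0 and 26 counts per library, among them the paxillin relative Tgfb1i1 (Hic-5) and the Cas relative Cass4. Members and partners were chosen with earlier results of these data known, and no test was made of the list as a group.

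Actin linkers and vinculin partners were lower in 8 of 9 cases, with a median of -0.63. The actin cross-linker alpha-actinin 1 (Actn1) averaged 360.3 ± 15.7 CPM in shTlr7 and 596 ± 37.8 CPM in shCtrl, a log2 fold change of -0.73 (edgeR adjusted p = 7.20e-08), with 8.15% of its exon bases shared with other genes. In the zyxin family and other LIM proteins, 6 of 8 were lower and 2 higher. The LIM protein Fblim1 (migfilin) fell to 74.2 ± 3.19 CPM in shTlr7, against 116 ± 6.82 CPM in shCtrl. The alpha-actinin-binding protein Pdlim5 fell to 121 ± 5.96 CPM in shTlr7, against 181 ± 11.4 CPM in shCtrl (edgeR adjusted p = 2.01e-07 for Fblim1 and 6.35e-07 for Pdlim5).

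Integrin activators and talin partners held 2 lower and 1 higher of 7. Kindlin 1 (Fermt1), which activates integrins together with talin, fell to 67.9 ± 4.68 CPM in shTlr7, against 129 ± 3.36 CPM in shCtrl, a log2 fold change of -0.92 (edgeR adjusted p = 8.10e-09). Kank1, which binds talin and links adhesions to microtubules, rose to 53.7 ± 5.93 CPM in shTlr7, against 39.9 ± 1.58 CPM in shCtrl (0.42, edgeR adjusted p = 2.13e-04). In the integrin-linked kinase complex, 3 of 5 were lower by small amounts, including the adaptor Lims1 (PINCH1) at -0.14 and Parvb, an actin-binding parvin, at -0.21. The kinase gene Ilk was not called, and 89.7% of its exon bases are shared with Rrp8 and Taf10. With library size alone 0 of the 5 were called, with values of -0.04 for Lims1 and -0.10 for Parvb. Leaving out shCtrl replicate 2 ended both calls (edgeR adjusted p = 0.0589 for Lims1 and 0.0779 for Parvb), leaving out shTlr7 replicate 3 or dropping the filter on low counts ended that of Lims1 (0.0641 and 0.0622), and leaving out shCtrl replicate 1 or shTlr7 replicate 2 ended that of Parvb (0.0609 and 0.0822).

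Among the paxillin family and paxillin partners, 1 of 4 was lower and 3 did not pass the threshold. Git1, a paxillin-binding regulator of Arf proteins, averaged 247 ± 6.22 CPM in shTlr7 and 288 ± 11.7 CPM in shCtrl (-0.22, edgeR adjusted p = 4.40e-04). Arhgef7 (beta-PIX), the exchange factor that binds Git1, had a log2 fold change of -0.12 (edgeR adjusted p = 0.0762) and was called once shCtrl replicate 4 was left out (-0.18, edgeR adjusted p = 0.00286) or with limma-voom (-0.14, adjusted p = 0.00763).

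Among 5 adhesion kinases, 2 were lower and 2 higher. Src averaged 133 ± 9.81 CPM in shTlr7 and 189 ± 7.41 CPM in shCtrl, at -0.51 (edgeR adjusted p = 2.52e-06), while its relative Fyn averaged 16.1 ± 0.87 CPM in shTlr7 and 11.7 ± 0.52 CPM in shCtrl, at 0.45 (edgeR adjusted p = 8.71e-05). Relatives and partners of the Cas proteins held 2 lower and 4 higher of 8. The lower genes were the Cas-binding exchange-factor-like proteins Sh2d3c at -0.89 and Bcar3 at -0.39 (edgeR adjusted p = 1.02e-06 and 9.17e-05), and 12.5% of Bcar3 exon bases are shared with the unnamed gene Gm42836. Of 4 tensin partners, 2 were lower and 1 higher. Dlc1, a GTPase-activating protein that binds tensin SH2 domains, fell to 2.00 ± 0.15 CPM in shTlr7, against 5.95 ± 1.31 CPM in shCtrl (-1.57, edgeR adjusted p = 1.48e-06). The receptor kinase Met rose to 197 ± 14.03 CPM in shTlr7, against 162 ± 13.4 CPM in shCtrl (0.28, edgeR adjusted p = 0.00242).

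**Figure D5:**
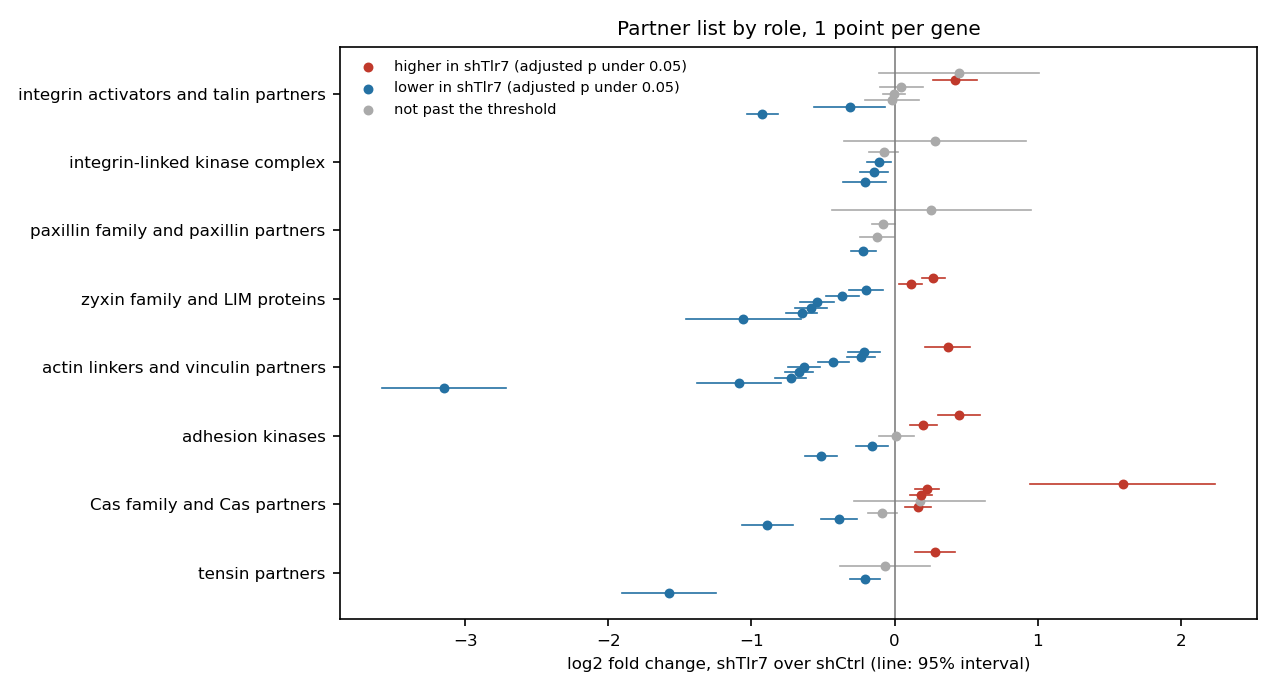
Log2 fold change of shTlr7 over shCtrl for the 50 tested partner genes by role (points, with the 95% interval as a line), coloured by edgeR adjusted p under 0.05 and direction. Most points of the actin linkers and of the zyxin family lie left of 0, and the adhesion kinases and Cas partners lie on both sides.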

How the data were processed

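The deposited file holds raw read counts, whole numbers for each gene in each library, which the authors left unscaled. STAR 2.7.5, DESeq2 1.32.0 and the build GRCm38 appear in the submitters' processing notes with no role stated. How reads were counted, with which strand setting and annotation, is not given in the sources used here. Per the labels' protocols, total RNA entered a TruSeq RNA kit.

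The groups were compared with edgeR 4.0.16 (R 4.3.3): filterByExpr by group, TMM scaling, and the robust quasi-likelihood F test (glmQLFit, glmQLFTest) with a term for group alone. P-values were Benjamini-Hochberg adjusted over all 13393 genes tested and called under 0.05. The SE is the size of the log2 fold change over the square root of F. CPM used TMM-scaled library sizes; lengths are all exon bases of a gene in GENCODE M21 (GRCm38), or its longest transcript, an alternative added after seeing the data. The fit was tested on simulated counts drawn with the spread that it had itself estimated, which cannot check the choice of scaling. No pair of libraries agreed within sampling noise (chi-square per degree of freedom 2.23 or more).

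Members and lists were chosen with earlier results of these data known. The text names all 10 members, the 2 tested genes with the lowest p per role of the partner list, Tlr7 and cell type markers. A gene that this rule would name is not reported here. Alternatives were 3 other scalings (RLE, upper quartile, none beyond library size), the Wald test of DESeq2 1.42.0, voom with quality weights in limma 3.58.1, other filters, adjusted p under 0.01, the replicate number as a block, libraries left out, and thinning to the smallest total.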

Additional observations from a re-analysis of the deposited data

Results flagged for a closer look

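The screen for distant libraries covered the 10 genes, the partner genes named by rule, the summed tensin level, and the tensin shares and ratios of members. In these 68 groups of 4 values, 4 had a single library whose gap to the nearest of the others exceeded Dixon's 95% limit. Chance gives about 1 in 20. All 4 were replicate 4 of a group. Zyx was at 209 CPM in shCtrl replicate 4, against 225 to 228 CPM in the other shCtrl libraries. Arhgef7 was at 94.7 CPM in shTlr7 replicate 4, against 104 to 106 CPM in the other shTlr7 libraries. Met was at 176.5 CPM in shTlr7 replicate 4, against 202 to 206 CPM in the others. Tns4 made up 67.4% of the summed tensin level in shCtrl replicate 4, against 70.2% to 70.8% in the others. Replicate 4 was the lowest library of its group for 5 of the 10 genes and the highest for 2, in shTlr7 and likewise in shCtrl. Without both libraries numbered 4, the log2 fold change was 0.03 for Zyx, -0.14 for Arhgef7 (edgeR adjusted p = 0.00438) and 0.27 for Met.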

How the results depend on the processing

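Over 19 alternatives for each of the 10 genes, 188 of 190 values kept their direction, or stayed uncalled, and their side of the threshold. The exceptions were Vcl and Zyx with library size only, where 2 members were called higher and 7 lower. Tns3 ranged from -1.65 to -1.53 and Tns2 from 0.37 to 0.52. Leaving out 1 library at a time, 8 members were lower and 1 higher each time, 22 to 28 partner genes were lower and 10 to 11 higher, and 3220 to 3843 genes were lower and 3476 to 4019 higher. The Tns2 to Tns3 difference in log2 ratio then lay between 1.99 and 2.10, and that of Tns4 to Tns3 between 0.92 and 0.99. Same-numbered libraries of the groups had deviations correlated at -0.00676, 0.114, 0.118 and 0.380 for numbers 1 to 4, above 0.1 for numbers 2 to 4 but not for number 1, and the labels do not say what a number marks, so the samples were not treated as paired. With the replicate block, 4005 genes were lower and 4334 higher, 8 members were lower and 1 higher, and Arhgef7 became called (-0.12, edgeR adjusted p = 0.0104). Tlr7 and the 6 untested partners had too few counts at these depths to be compared.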

Other observations

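A few partner genes lie outside the rule for named genes and were chosen after their values were seen. Sorbs2, which encodes a vinculin-binding adaptor (ArgBP2), had 2.79, 2.72, 2.91 and 2.28 CPM in shTlr7 replicates 1 to 4, against 26.7, 26.5, 26.8 and 15.2 CPM in shCtrl replicates 1 to 4, and a log2 fold change of -3.15 ± 0.19 (SE; edgeR adjusted p = 4.89e-07). For Sorbs2, shCtrl replicate 4 lay far below the other shCtrl libraries. The LIM protein Ajuba had 50.5, 46.2, 53.1 and 74.8 CPM in shTlr7 replicates 1 to 4, against 109.8, 109, 105 and 142 CPM in shCtrl replicates 1 to 4 (-1.06, edgeR adjusted p = 0.00130), with replicate 4 the highest in each group. Sorbs2 and Ajuba were not among the genes screened for distant libraries. Efs, another Cas-family gene, was scarce and higher in shTlr7: it averaged 1.01 ± 0.13 CPM in shTlr7 and 0.358 ± 0.195 CPM in shCtrl (1.59, edgeR adjusted p = 5.14e-04). The focal adhesion kinase gene Ptk2 averaged 248 ± 19.0 CPM in shTlr7 and 245 ± 11.6 CPM in shCtrl (0.01, edgeR adjusted p = 0.849), with a 95% interval of -0.11 to 0.13.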
